A study of Homo sapiens with 9 samples.

Results

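The comparison described here is that of cells treated with dTAG47, a compound that directs the tagged PRPS1 protein to degradation, against cells given DMSO, the solvent. Its members are the libraries whose titles carry dTAG47 or DMSO: 3 of each, 6 of the 9 libraries in the series. All of them came from HEK293T cells, an established human embryonic kidney line, in which PRPS1 carried an HA tag with a dTAG degron and its partner PRPSAP1 carried a BromoTag (with a V5 tag in the titles). The DMSO controls carried both tags too. dTAG47 was given at 500 nM and total RNA was taken after 24 hours; how much DMSO was given is not stated. The other 3 libraries were cells of the same genotype given AGB1 at 500 nM for 24 hours, the compound meant to deplete PRPSAP1; they serve here to estimate the spread and for a direct comparison of dTAG47 with AGB1. Polyadenylated RNA was sequenced. The question was how transcript levels respond to loss of PRPS1. Untagged cells given dTAG47 were not analysed here, so loss of PRPS1 and other actions of the compound cannot be told apart. The labels do not say whether the line is 1 clone or whether replicates were grown as separate cultures, so the p-values below measure only the spread between these libraries.

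PRPS1 and PRPS2 are phosphoribosyl pyrophosphate (PRPP) synthetases. They join ribose 5-phosphate from the pentose phosphate pathway to the pyrophosphate of ATP, and PRPP then feeds de novo purine synthesis, pyrimidine synthesis and the salvage of bases and of nicotinic acid or nicotinamide. PRPSAP1 and PRPSAP2 are the associated subunits, which resemble the synthetases but are held to lack their activity. A dTAG compound binds a mutant FKBP12 domain fused to the target and brings in the cereblon (CRBN) ubiquitin ligase, so it acts on the protein: the PRPS1 transcript does not report on depletion, and no protein was measured in these files.

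The 6 libraries held between 31046698 and 44803380 counts over 58735 annotated genes, and the 3 AGB1 libraries between 27964128 and 37250551. After a filter on low counts 18319 genes were tested. Libraries of 1 group differed by more than sampling noise (chi-square per degree of freedom of 6.06 to 16.1 between pairs), so none was treated as a repeat deposit. The 6 libraries also differed in how a gene's level followed the GC content of its transcript. That relation, as Spearman's correlation over 11436 genes, was -0.378, -0.280 and 0.271 in the DMSO libraries and 0.623, -0.329 and 0.0289 in the dTAG47 libraries; the groups overlapped (two-sided exact permutation test, p = 0.6, where 0.1 is the smallest possible with 3 against 3). The labels call the line epithelial: KRT8, KRT18, CDH1 and ESRP2 were present in every library and 4 of 10 epithelial markers stayed under 1 CPM (counts per 1000000). The mesenchymal marker VIM stood at 341 to 382 CPM, but 6 of 11 mesenchymal and fibroblast markers stayed under 1 CPM. The summed share of the epithelial markers was 0.0147, 0.0148 and 0.0149% of counts with DMSO and 0.0130, 0.0139 and 0.0142% with dTAG47, without overlap (exact permutation test, p = 0.1). All 8 endothelial markers and 9 of 12 blood markers stayed under 1 CPM, and PTPRC, the pan-leukocyte gene, had no count.

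Few transcripts passed the threshold. With edgeR's quasi-likelihood test and Benjamini-Hochberg adjustment over all tested genes, 11 genes passed an adjusted p of 0.05. These were 0.0600% of those tested: 6 rose (0.0328%) and 5 fell (0.0273%). Genes of the heme, amino acid and immediate early responses were among those that rose (HMOX1, CHAC1, SLC7A5, JUN, RHOB), and the signalling and transcription genes WNT5A, ALDH1A2 and FOXO4 were among those that fell. The folds were small, from 1.21 (SLC7A5) to 1.75 (CHAC1) among those that rose. Over all tested genes 9102 log2 fold changes were positive and 9217 negative, with a median of -0.00. The data bounded most changes closely: of 11456 genes at 5 CPM or more, the 95% interval of the log2 fold change lay within a 1.5-fold change either way for 10961 (95.7%). Before adjustment 1333 genes (7.28%) had a p under 0.05.

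HMOX1, the inducible heme oxygenase, a classic oxidative stress gene, had the smallest p of all genes (chr22:35380361-35394214). Its level was 40.6, 37.8 and 40.1 CPM in the DMSO libraries and 55.2, 63.7 and 56.1 CPM in the dTAG47 libraries. Every dTAG47 library lay above every DMSO library, and HMOX1 rose 1.48-fold (log2 fold change 0.56, SE 0.08; edgeR adjusted p = 0.00127). Its partner in iron handling, the ferritin heavy chain FTH1, which stores iron, stood at 147, 158 and 153 CPM with DMSO and 181, 182 and 179 CPM with dTAG47 without overlap, but missed the threshold (log2 fold change 0.24; edgeR adjusted p = 0.128). Reads of FTH1 can also come from its processed pseudogenes: 30.8% of the 75-base words of its transcript occur in FTH1P10 or another gene. NQO1, another gene of the oxidative stress response, was lower on average, at a mean of 13.4 CPM with DMSO and 10.8 CPM with dTAG47, with overlapping groups (log2 fold change -0.31; edgeR adjusted p = 0.629). NFE2L2, which encodes the oxidative stress regulator NRF2, had a log2 fold change of -0.02 (95% interval -0.18 to 0.13).

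CHAC1, which cleaves glutathione and is a target of the stress regulator ATF4, rose most among the called genes (chr15:40952962-40956519). It is a low transcript, with 5.30, 7.60 and 7.15 CPM in the DMSO libraries and 12.4, 10.3 and 12.4 CPM in the dTAG47 libraries. The groups did not overlap, and the gene rose 1.75-fold (log2 fold change 0.80, SE 0.16; edgeR adjusted p = 0.033). SLC7A5, the light chain of a large neutral amino acid transporter and also an ATF4 target, rose 1.21-fold (chr16:87830023-87869488; log2 fold change 0.28, SE 0.05; edgeR adjusted p = 0.0213). Its values were 425, 384 and 409.9 CPM with DMSO and 519, 489.6 and 469 CPM with dTAG47, again without overlap. The heavy chain of that transporter, SLC3A2, stood at 253, 256 and 272 CPM with DMSO and 287, 274 and 277 CPM with dTAG47: the groups did not overlap, but the gene missed the threshold (log2 fold change 0.10; edgeR adjusted p = 0.681).

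JUN, the AP-1 transcription factor, and RHOB, an endosomal small GTPase known as an immediate early gene, both rose. JUN (chr1:58780788-58784327) had 419, 482 and 515 CPM in the DMSO libraries and 641, 547 and 585 CPM in the dTAG47 libraries (log2 fold change 0.32, SE 0.06; edgeR adjusted p = 0.0224). RHOB (chr2:20447074-20449445) had 188, 184 and 218 CPM with DMSO and 276, 236 and 239 CPM with dTAG47 (log2 fold change 0.35, SE 0.06; edgeR adjusted p = 0.0224). In both genes the groups did not overlap, and dTAG47 replicate 1 was the highest library. The sixth gene that rose was MRPL23, a protein of the large mitochondrial ribosomal subunit (chr11:1947278-1984522). It had 36.1, 28.5 and 35.6 CPM with DMSO and 68.9, 44.8 and 46.2 CPM with dTAG47 (log2 fold change 0.67, SE 0.12; edgeR adjusted p = 0.0213), and dTAG47 replicate 1 stood well above the others. No other of the 78 mitochondrial ribosomal protein genes tested was called; 41 were positive and 37 negative, with a median of 0.00. DESeq2 did not call MRPL23 (adjusted p = 0.141).

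The regulators of these stress genes have known DNA sites, and the bases upstream of the called genes were searched for a few of them. Of the 11 genes 7 had an entry among the RefSeq promoters of GRCh38.p14, which give 250 bases before each gene's start. HMOX1, GPR89B, MRPL23 and MT-RNR1 had no entry and were not searched. The motifs were TGATGNAA (the C/EBP-ATF element bound by ATF4), TGANTCA (AP-1), TGACNTCA (the CRE-like site that JUN and ATF proteins bind), TGACNNNGC (the core of the antioxidant element), CACGTG (E-box) and TGTTTAC (forkhead), each on both strands. The matches in CHAC1, JUN and SLC7A5 are shown with 11 bases before them, 30 bases in all, 5′ to 3′ along the gene, with the match in capitals.
CHAC1: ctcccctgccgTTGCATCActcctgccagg
JUN: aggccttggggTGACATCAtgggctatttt
SLC7A5: gccggacgacgCACGTGctccgagctgggc
The CHAC1 stretch is chr15:40953251-40953280 on the plus strand, and its capitals are TGATGNAA read on the opposite strand, starting 209 bases before the RefSeq start. TGATGNAA occurs in 3.15% of all RefSeq promoters and 1.69% of those of tested genes. The JUN stretch is chr1:58784096-58784125 on the minus strand, with a TGACNTCA match starting 67 bases before the start; that motif occurs in 6.87% of promoters (5.50% of those of tested genes). The SLC7A5 stretch is chr16:87869619-87869648 on the minus strand, with an E-box 130 bases before the start; E-boxes occur in 6.34% (8.15% of those of tested genes). The SLC7A5 window held no TGATGNAA match, although the gene is an ATF4 target. GENCODE 29 places the CHAC1 and JUN stretches inside the annotated 5′ untranslated region of a longer transcript, so they lie upstream only of the RefSeq start. FOXO4 had a TGANTCA match 240 bases before its start (6.57% of promoters; 4.48% of those of tested genes), while WNT5A, RHOB and ALDH1A2 held none of the 6 motifs. TGACNNNGC occurs in 10.9% of promoters (11.6% of those of tested genes) and TGTTTAC in 2.98% (2.23%). Each match is a description of letters in the window; no binding was measured.

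**Figure D1:**
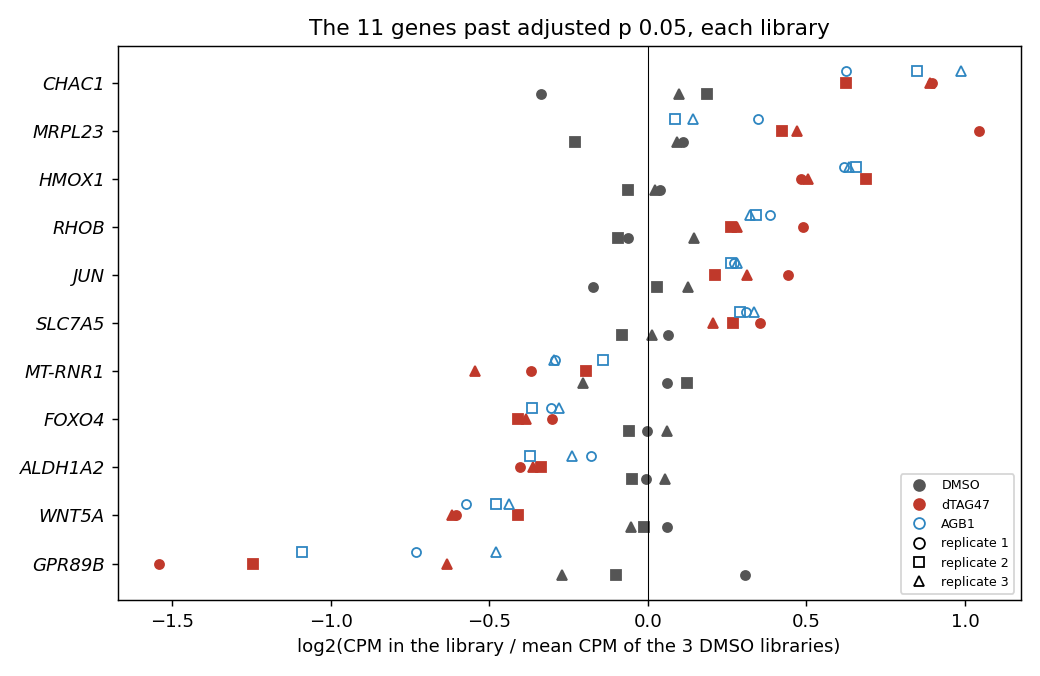
The 11 genes past an adjusted p of 0.05, 1 per line, with the log2 ratio of each library's CPM to the mean of the 3 DMSO libraries on the x axis (grey DMSO, red dTAG47, open blue AGB1; shapes give the replicate number). The dTAG47 and DMSO symbols separate in every gene but MT-RNR1, where dTAG47 replicate 2 lies beside the lowest DMSO library.

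Among the 5 genes that fell were a WNT ligand, a retinoic acid enzyme and a forkhead factor. WNT5A, a ligand of non-canonical WNT signalling, had 44.3, 42.2 and 41.0 CPM in the DMSO libraries and 28.0, 32.0 and 27.7 CPM in the dTAG47 libraries (chr3:55465715-55490539). All dTAG47 libraries lay below all DMSO libraries, at 0.689 of the DMSO level (log2 fold change -0.54, SE 0.09; edgeR adjusted p = 0.0112). ALDH1A2, which makes retinoic acid from retinal, had 76.2, 74.0 and 79.4 CPM with DMSO and 57.9, 60.6 and 59.5 CPM with dTAG47 (chr15:57953424-58497866; log2 fold change -0.37, SE 0.07; edgeR adjusted p = 0.0337). FOXO4, a forkhead factor of the insulin and stress response, had 88.0, 84.5 and 91.9 CPM with DMSO and 71.5, 66.3 and 67.5 CPM with dTAG47 (chrX:71096197-71103535; log2 fold change -0.37, SE 0.07; edgeR adjusted p = 0.0224). Neither gene's groups overlapped.

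The other two genes that fell are uncertain. GPR89B, a Golgi pH regulator, had 22.6, 17.1 and 15.2 CPM with DMSO and 6.28, 7.73 and 11.8 CPM with dTAG47 (chr1:147928393-147993521; log2 fold change -1.09, SE 0.18; edgeR adjusted p = 0.0112). It shares 73.7% of its 75-base words with its copy GPR89A, which was higher on average, at 14.2, 9.85 and 11.1 CPM with DMSO and 26.7, 10.3 and 12.1 CPM with dTAG47. When the reads of both copies were summed, a step chosen after their values were seen, the log2 fold change was -0.27 (SE 0.15; edgeR adjusted p = 0.738), so the call of GPR89B ended. MT-RNR1, the 12S ribosomal RNA of the mitochondrial genome (chrM:648-1601), had 901, 942 and 749.9 CPM with DMSO and 669.9, 754 and 593 CPM with dTAG47 (log2 fold change -0.36, SE 0.07; edgeR adjusted p = 0.031). Its groups overlapped, DESeq2 did not call it (adjusted p = 0.232), and it is an RNA that selection for poly(A) tails recovers only in part. None of the other 14 mitochondrial genes tested was called, and their summed share with MT-RNR1 was 2.25% ± 0.110 (SD, n = 3) with DMSO and 2.16% ± 0.216 with dTAG47 (exact permutation test, p = 0.6).

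The calls depended on single libraries to different degrees, while all 11 genes kept their direction when any 1 of the 9 libraries was left out. HMOX1 was called in all 9 such fits, GPR89B, MRPL23 and SLC7A5 in 7, RHOB in 6, WNT5A, JUN and MT-RNR1 in 5, CHAC1 in 4, FOXO4 in 3 and ALDH1A2 in 1. Without dTAG47 replicate 1 only HMOX1 of the 11 was called, without DMSO replicate 2 only HMOX1 and GPR89B, and without DMSO replicate 1 only HMOX1, MRPL23 and SLC7A5. Without dTAG47 replicate 3, 5 of the 11 were called, and without DMSO replicate 3 or dTAG47 replicate 2, 9 each. The 6 genes that rose were rich in GC, from 56.7% (JUN) to 62.6% (CHAC1), against a median of 48.6% over all tested genes. Those that fell ranged from 39.9% (GPR89B) to 56.0% (FOXO4). dTAG47 replicate 1 was also the library with the strongest GC relation (0.623). With the trend over GC content removed from every library all 11 were called, with log2 fold changes of 0.53 for HMOX1, 0.76 for CHAC1, -0.52 for WNT5A and 0.23 for SLC7A5.

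None of the 11 genes differed between dTAG47 and AGB1 past the threshold. The direct contrast of the 3 dTAG47 with the 3 AGB1 libraries in the same edgeR fit called 0 of 18319 genes (0.00%), and limma and DESeq2 also called 0; 736 genes (4.02%) had an unadjusted p under 0.05. HMOX1 had 60.7, 62.3 and 61.3 CPM with AGB1, and its dTAG47 minus AGB1 log2 difference was -0.07 (SE 0.08). The same difference was -0.02 (SE 0.15) for CHAC1, -0.00 (SE 0.06) for RHOB, 0.05 (SE 0.06) for JUN and -0.04 (SE 0.09) for WNT5A. MRPL23 showed the widest gap, with 42.5, 35.4 and 36.9 CPM with AGB1 and a difference of 0.48 (SE 0.12). The edgeR adjusted p of the difference was 0.999 for each of the 11 genes. A p that misses the threshold does not show that the compounds act alike; for HMOX1 and RHOB the size of the difference was under its standard error, while for MRPL23 it was not.

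Among protein-coding genes that missed the threshold, those with the smallest p and no overlap between the groups had edgeR adjusted p-values from 0.091 to 0.168. On the higher side they were SESN2, a leucine sensor and inhibitor of mTORC1 (0.29, the log2 fold change as for each gene here), NBPF20 (0.57), FTH1 (0.24), the AP-1 gene JUND (0.41), the snRNA transcription factor subunit SNAPC2 (0.54), ZFPM1 (0.72), RNF122 (0.52) and the lysosomal sialidase NEU1 (0.31). NBPF20 shares 64.9% of its 75-base words with NBPF9 or another copy. On the lower side were the semaphorin receptor NRP1 (-0.40), its ligand SEMA3C (-0.44), the glucocorticoid-induced TSC22D3 (-0.20), HOXB9 (-0.26), HOXC9 (-0.57), the homeobox gene DLX1 (-0.43), the adducin ADD3 (-0.29) and ARAP2 (-0.63). DESeq2 called 45 of 33037 genes with any count, among them 9 of the 11 above and all of those just named but ARAP2. SESN2, the nearest to the threshold, had 137, 134 and 155 CPM with DMSO and 167, 172 and 180.4 CPM with dTAG47 (edgeR adjusted p = 0.091; DESeq2 adjusted p = 0.00399).

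The transcripts of the PRPP synthetase complex did not differ past the threshold. PRPS1, the tagged gene, had 99.1, 105 and 106 CPM in the DMSO libraries and 113, 110.0 and 106 CPM in the dTAG47 libraries. Its groups barely failed to overlap, and its log2 fold change of 0.09 (95% interval -0.04 to 0.21; edgeR adjusted p = 0.808) missed the threshold. PRPS2, the other synthetase, had 118, 119.6 and 118 CPM with DMSO and 115, 117 and 115 CPM with dTAG47 (log2 fold change -0.04, 95% interval -0.16 to 0.08). PRPSAP1 had 36.6, 23.5 and 28.3 CPM with DMSO and 32.1, 29.8 and 26.8 CPM with dTAG47, and its wide spread within the DMSO group left an interval of -0.23 to 0.25. PRPSAP2 had a log2 fold change of -0.02 (95% interval -0.16 to 0.13). Per kilobase of annotated gene length, PRPS1 and PRPS2 stood at close mean levels with DMSO (39.4 and 43.0 CPM per kilobase) and with dTAG47 (41.9 for both). PRPSAP2 (13.9 and 13.8) and PRPSAP1 (4.24 and 4.26) were lower on this measure. That length came with the counts and can far exceed the transcript expressed (9845 bases for RPS29), so such ranks between genes depend on the annotation. PRPS1L1, a testis gene, had too few counts to test.

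The enzymes that use PRPP, or make its precursor, held no called gene, where 0.0600% of all tested genes were called. Of the 11 genes of de novo purine synthesis, 7 were positive and 4 negative, none was called and none had an unadjusted p under 0.05, with a median log2 fold change of 0.03. PPAT, which takes PRPP into the first committed step, had 144, 151 and 139 CPM with DMSO and 132, 136 and 136 CPM with dTAG47. PAICS, which catalyses a pair of middle steps, had 725, 749 and 758 CPM with DMSO and 668, 723 and 723 CPM with dTAG47. In both genes the dTAG47 libraries lay below the DMSO libraries, with log2 fold changes of -0.10 and -0.08 (edgeR adjusted p = 0.74 and 0.741). PPAT and PAICS are neighbours on chromosome 4 that share a promoter region, so they are not independent. With the GC trend removed PPAT was at -0.02 and PAICS at -0.06. GART, PFAS, ADSL and ATIC, the other enzymes of the path to IMP, lay between -0.04 and 0.03 (ADSL shares 26.0% of its words with another gene). IMPDH1, which opens the branch to GMP, was at 0.11, and IMPDH2 was at 0.03. Per kilobase of annotated gene length IMPDH2 was the higher isoform, at 148 against 37.3 CPM per kilobase with DMSO. GMPS was at -0.01 and ADSS, which opens the branch to AMP, at 0.04. The muscle isoform ADSSL1 was too low to bound well, with 2.78, 2.71 and 4.15 CPM with DMSO and 4.69, 3.86 and 4.23 CPM with dTAG47 (95% interval -0.04 to 0.85). The sign of the list's median turned to -0.04 without DMSO replicate 3 and was negative without dTAG47 replicate 3 too.

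In pyrimidine synthesis and uridine salvage 8 of 11 genes were positive and none was called, with a median of 0.07 (0.04 without dTAG47 replicate 1). UPP1, the uridine phosphorylase that releases ribose 1-phosphate from uridine, had 16.5, 18.4 and 17.2 CPM with DMSO and 21.9, 21.2 and 21.6 CPM with dTAG47. Its groups did not overlap and its log2 fold change was 0.31 (unadjusted p = 0.00741; edgeR adjusted p = 0.465). CAD, which carries the first steps of pyrimidine synthesis, was at 0.05 (95% interval -0.06 to 0.15), and UMPS, which uses PRPP, at -0.04 (-0.16 to 0.09). Among 7 genes of base salvage and the NAD branch, HPRT1, which salvages hypoxanthine and guanine, was at 0.02 (95% interval -0.11 to 0.15) and APRT, which salvages adenine, at 0.06 (-0.06 to 0.17). NAPRT, which joins PRPP to nicotinic acid, had 2.91, 3.71 and 4.12 CPM with DMSO and 4.95, 5.78 and 5.55 CPM with dTAG47: the groups did not overlap, but the gene missed the threshold (log2 fold change 0.60; edgeR adjusted p = 0.531).

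In the pentose phosphate pathway 8 of 9 genes were positive and none was called, with a median of 0.08 (0.03 without DMSO replicate 1). RPIA, which makes ribose 5-phosphate, had 47.6, 48.8 and 48.7 CPM with DMSO and 60.3, 51.2 and 52.6 CPM with dTAG47 (log2 fold change 0.18; edgeR adjusted p = 0.641). RBKS, which phosphorylates ribose, had 1.91, 1.99 and 2.33 CPM with DMSO and 2.87, 4.02 and 3.94 CPM with dTAG47 (log2 fold change 0.80; edgeR adjusted p = 0.439). Neither gene's groups overlapped, and RBKS is a low transcript whose annotation overlaps BABAM2 and MRPL33. Among 17 genes of ribonucleotide reductase and dNTP supply 9 were positive and 8 negative, with a median of 0.01 that was negative with the GC trend removed. The reductase subunits RRM1 and RRM2 were at -0.02 (-0.12 to 0.08) and -0.04 (-0.17 to 0.09). SAMHD1, which degrades dNTPs, and TYMS, thymidylate synthase, had unadjusted p-values of 0.0445 and 0.0477 at log2 fold changes of 0.14 and 0.18; in both the groups overlapped. Serine and folate one-carbon genes had 13 of 19 positive (median 0.05) and glycolytic genes 17 of 24 (median 0.04), with none called.

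**Figure D2:**
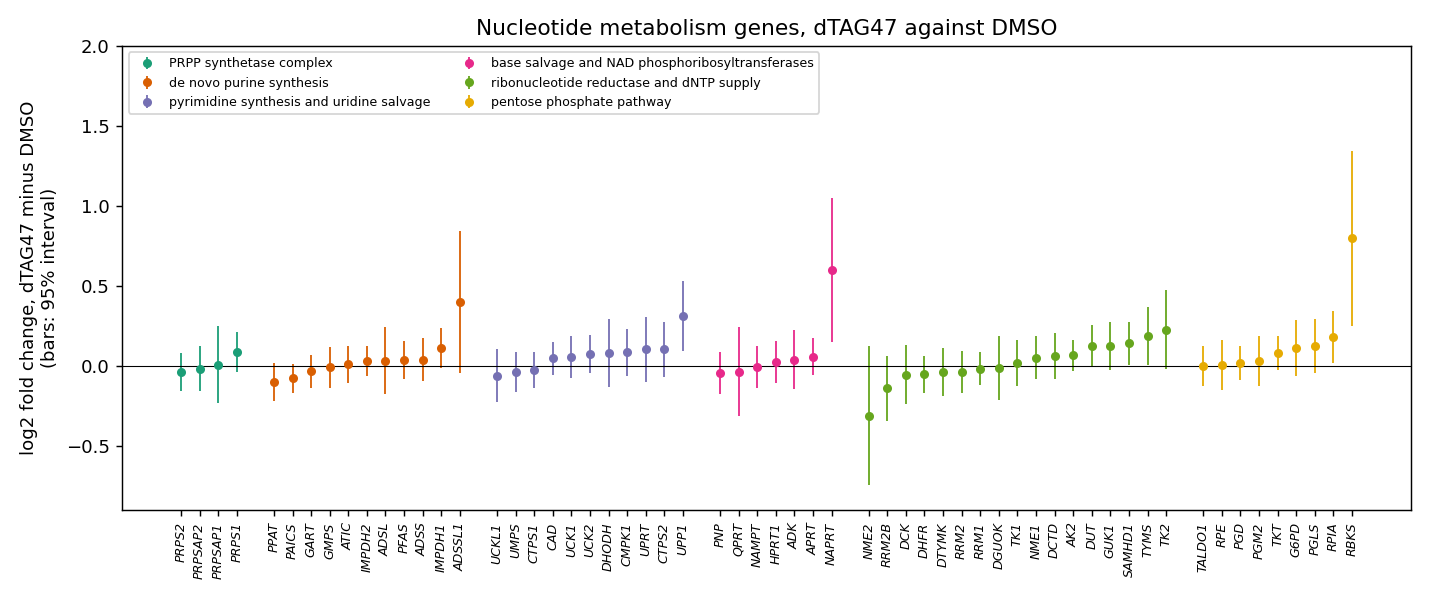
Log2 fold change (dTAG47 minus DMSO, y axis) with its 95% interval for every tested gene of 6 nucleotide metabolism lists, ordered by value within each list and coloured by list. RBKS at 0.80 and NAPRT at 0.60 are the highest, both with wide intervals.

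The series is titled after nucleotide synthesis and chromatin formation, and the genes of histone supply and DNA replication were therefore set beside these. None of the 17 replication-coupled histone chaperone genes was called, had an unadjusted p under 0.05 or had groups without overlap (over all tested genes 5.80% lay without overlap on the higher side and 5.82% on the lower); 8 were positive and 9 negative, with a median of -0.01. CHAF1A and CHAF1B, subunits of the CAF-1 complex that deposits new histones behind the fork, were at 0.08 (95% interval -0.05 to 0.20) and 0.05 (-0.07 to 0.18). The histone H3-H4 chaperones ASF1A and ASF1B were at 0.03 (-0.21 to 0.28) and -0.01 (-0.14 to 0.11), and NASP, which holds the soluble H3-H4 pool, at 0.06 (-0.05 to 0.16). SLBP, which binds the stem-loop of replication-dependent histone mRNA, had 168, 179 and 176 CPM with DMSO and 178, 179 and 182 CPM with dTAG47, overlapping (log2 fold change 0.04). Of 71 replication-dependent histone cluster genes 39 could be tested, 18 positive and 21 negative, none called; their transcripts mostly lack poly(A) tails and made up 0.0320% ± 0.00285 (SD, n = 3) of counts with DMSO and 0.0318% ± 0.00110 with dTAG47 (exact permutation test, p = 0.8). Replacement histones and their deposition factors had 11 of 19 positive (median 0.01).

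DNA replication genes were balanced, with 22 positive and 25 negative of 47 and a median of -0.01. MCM2, of the replicative helicase, was at 0.09 (95% interval -0.02 to 0.20), and CLSPN, a checkpoint mediator at the fork, had 111, 99.6 and 93.0 CPM with DMSO and 87.8, 90.9 and 90.6 CPM with dTAG47 without overlap (log2 fold change -0.17; edgeR adjusted p = 0.614). Genes of G2/M and mitosis were mostly negative: 39 of 48, with a median of -0.06, 8 with an unadjusted p under 0.05 on the lower side (background 3.62%) and none called (CENPE was called without a count filter). The lowest p was that of CENPE, a kinetochore motor, with 214, 193 and 204 CPM with DMSO and 159.7, 172 and 179 CPM with dTAG47 (log2 fold change -0.26; edgeR adjusted p = 0.181). These genes are poor in GC (median 41.7%, against 48.6% over all tested genes); the median was -0.04 once the GC trend was removed, and without both DMSO replicate 1 and dTAG47 replicate 1 it was -0.02. The part of GC content in it was not tested further. Replication stress and repair genes gave 18 of 24 negative at a median of -0.07 (-0.04 with the GC trend removed, -0.02 without both replicates 1). CDKN1A, a cell cycle inhibitor, had 36.7, 37.6 and 43.4 CPM with DMSO and 45.3, 41.5 and 50.1 CPM with dTAG47, overlapping (log2 fold change 0.22; edgeR adjusted p = 0.615).

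Members of the ATF4, immediate early and lysosomal lists lay mostly on the higher side. Of 39 ATF4 target genes tested 30 were positive, with a median of 0.10. Of the 39, 2 were called (CHAC1 and SLC7A5), where 0.0600% of all tested genes were called. In 12 the dTAG47 libraries all lay above the DMSO libraries (background 5.80%), against 0 on the lower side. ATF4 itself, whose output is set largely by translation, had 924, 1002 and 996 CPM with DMSO and 1050.0, 1025 and 1024 CPM with dTAG47 (log2 fold change 0.08; edgeR adjusted p = 0.684). PPP1R15A, which reverses eIF2-alpha phosphorylation, had 28.0, 28.9 and 27.6 CPM with DMSO and 36.3, 39.6 and 30.5 CPM with dTAG47 without overlap, at 0.33 (edgeR adjusted p = 0.309). On the lower side lay 9 of the 39, down to -0.43. Some known targets on the higher side had overlapping groups: the asparagine synthetase ASNS (0.15, 95% interval -0.39 to 0.69), the pseudokinase TRIB3 (0.16) and the CHOP gene DDIT3 (0.08, -0.28 to 0.45). ASNS and DDIT3 are low in these cells, at means of 3.36 and 6.38 CPM with DMSO. The genes of the endoplasmic reticulum unfolded protein response had a median of 0.02 over 26 genes.

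Of 31 immediate early genes tested 21 were positive, with a median of 0.12, and 9 had an unadjusted p under 0.05 on the higher side (background 3.65%). Only JUN was called, where 0.0600% of all tested genes were called. JUND had 36.7, 44.5 and 49.7 CPM with DMSO and 64.9, 53.5 and 55.6 CPM with dTAG47, and the zinc finger factor KLF6 57.0, 51.6 and 50.8 CPM with DMSO and 69.4, 63.8 and 62.9 CPM with dTAG47; neither gene's groups overlapped (edgeR adjusted p = 0.128 and 0.21). DUSP1, a MAP kinase phosphatase, had 33.1, 47.2 and 40.8 CPM with DMSO and 52.9, 46.0 and 51.8 CPM with dTAG47, with overlap (log2 fold change 0.31). The list leaned on 1 library: without dTAG47 replicate 1 its median was 0.02. Of 35 lysosomal and TFEB target genes 28 were positive, with a median of 0.11 (0.07 without DMSO replicate 3), and 9 had groups without overlap on the higher side (background 5.80%) against 1 on the lower (5.82%). edgeR called none, and DESeq2 called NEU1 among its 45 genes. NEU1 had 63.6, 65.6 and 75.1 CPM with DMSO and 87.7, 80.2 and 86.2 CPM with dTAG47 (log2 fold change 0.31; edgeR adjusted p = 0.168; without a count filter, and also without DMSO replicate 3, edgeR called it; DESeq2 adjusted p = 0.0351), while GLA, the alpha-galactosidase, was lower in every dTAG47 library, with 468, 469 and 447 CPM with DMSO and 419, 412 and 441 CPM with dTAG47 (log2 fold change -0.12; edgeR adjusted p = 0.554). NRF2 target genes gave 15 of 25 positive at a median of 0.04, with HMOX1 the called one (0.0600% of all tested genes were called). With the GC trend removed the medians were 0.08 for ATF4 targets, 0.10 for immediate early genes and 0.09 for lysosomal genes.

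**Figure D3:**
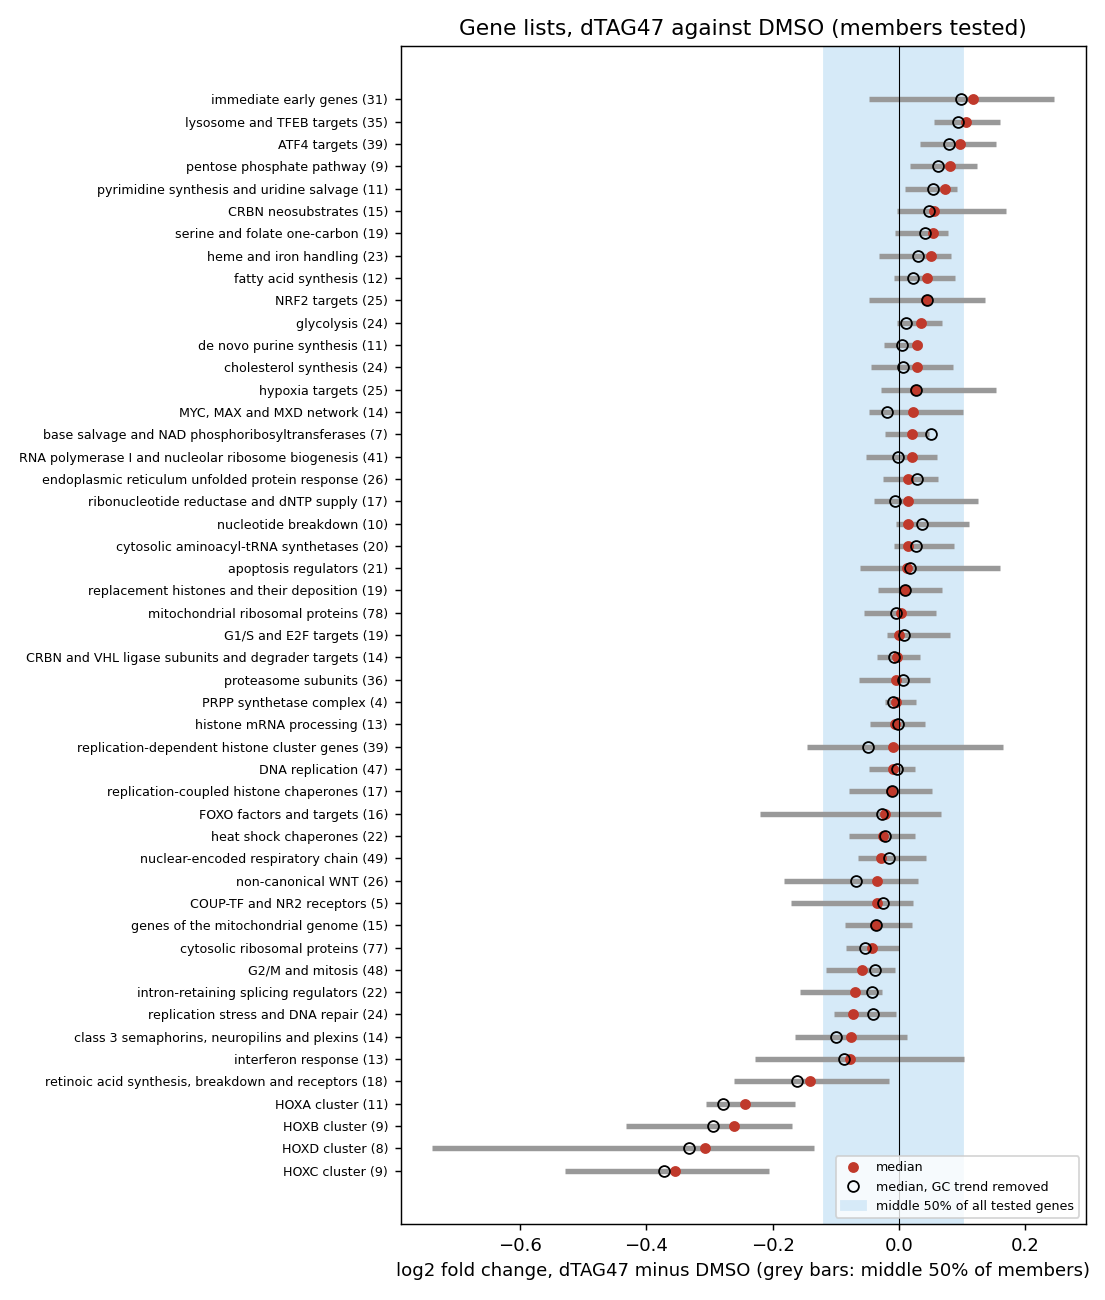
Median log2 fold change (dTAG47 minus DMSO, red) of each gene list drawn with the middle 50% of its members (grey bars), the median with the GC trend removed (open circles) and the middle 50% of all tested genes (blue band); the number of members tested stands in brackets. The 4 HOX clusters lie farthest below 0, at medians from -0.35 to -0.24, and the retinoic acid list next, at -0.14; immediate early, lysosomal and ATF4 lists lie highest.

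The HOX genes, which encode the homeodomain factors that set position along the body axis, lay almost without exception on the lower side, most by a small amount. Of 39 HOX genes 37 could be tested: 36 had a negative log2 fold change and 1 a positive one, with a median of -0.28. edgeR called none. DESeq2 called HOXB9 and HOXC9 among its 45 genes. With the GC trend removed edgeR also called HOXB9 and HOXC9 (among 22), and without a count filter HOXB9 and HOXC4 (among 43). The exception, HOXC5, was at 0.05 with a mean of only 0.336 CPM with DMSO. In 16 of the 37 the dTAG47 libraries all lay below the DMSO libraries (background 5.82%), against 0 above, and 13 had an unadjusted p under 0.05. By cluster, the median was -0.24 for HOXA (11 of 11 negative), -0.26 for HOXB (9 of 9), -0.35 for HOXC (8 of 9) and -0.31 for HOXD (8 of 8). Among the 29 HOX genes at 5 CPM or more all 29 were negative, with a median of -0.25. The median over the 37 genes was -0.31 with the GC trend removed, and between -0.32 and -0.25 when libraries were left out. Their median dTAG47 minus AGB1 log2 difference was 0.01, and 0 of them were called in that contrast.

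HOXB9, the HOX gene with the smallest p, had 157, 162 and 154 CPM in the DMSO libraries and 127, 135 and 133 CPM in the dTAG47 libraries. The groups were well apart but the gene missed the threshold (log2 fold change -0.26, SE 0.06; edgeR adjusted p = 0.128; with the GC trend removed 0.0188; DESeq2 adjusted p = 0.00785). HOXC9 had 13.6, 16.1 and 16.8 CPM with DMSO and 11.7, 9.94 and 9.81 CPM with dTAG47 (log2 fold change -0.57, SE 0.13; edgeR adjusted p = 0.13; with the GC trend removed 0.0344; DESeq2 adjusted p = 0.0228). HOXA10 had 64.7, 66.6 and 70.2 CPM with DMSO and 55.2, 52.0 and 60.9 CPM with dTAG47 (-0.26), and HOXD10 30.6, 31.2 and 33.9 CPM with DMSO and 25.2, 23.7 and 27.1 CPM with dTAG47 (-0.33); in each of these the groups did not overlap. The size varied within a cluster. HOXA9 lay between 92.7 and 105 CPM with DMSO and between 91.4 and 102 CPM with dTAG47, with overlap (log2 fold change -0.03, 95% interval -0.16 to 0.11), although its annotation overlaps that of HOXA10. HOXD13, at the end of its cluster, had 76.7, 78.4 and 88.6 CPM with DMSO and 83.2, 78.5 and 78.0 CPM with dTAG47 (-0.02, -0.17 to 0.12), and HOXB13 was at -0.05 (-0.23 to 0.12). Neighbouring HOX genes overlap one another and antisense transcripts, and the strand setting of the counting is not given in the sources used here, so reads of such neighbours may have been counted together. This holds for the genes given above: HOXB9 overlaps HOXB7, HOXC9 overlaps HOXC6, HOXC-AS1 and HOXC-AS2, HOXA10 overlaps HOXA9, and HOXD10 overlaps HOXD11. HOXB6 overlaps HOXB3 and HOXB-AS3, and HOXD3 and HOXD4 share most of their words with AC009336.2. The members of a cluster are therefore not independent measurements. In bulk RNA, fewer cells expressing a gene and less RNA per cell cannot be told apart.

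**Figure D4:**
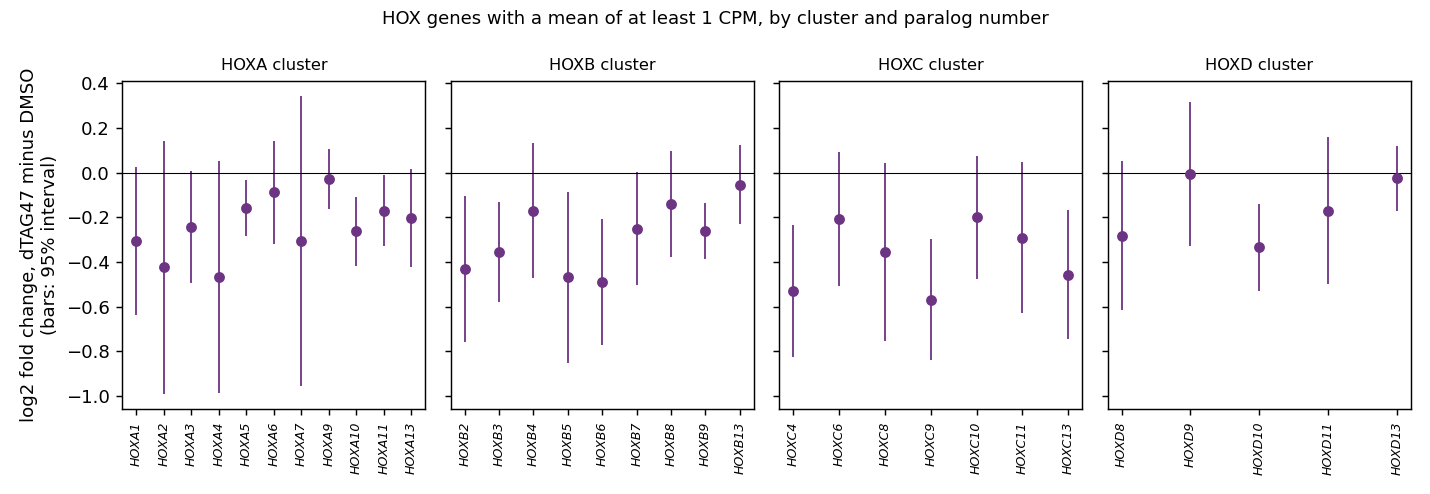
Log2 fold change (dTAG47 minus DMSO, y axis) with its 95% interval for the HOX genes with a mean of at least 1 CPM, in 1 panel per cluster, ordered by paralog number. All points lie below 0; HOXA9, HOXB13, HOXD9 and HOXD13 lie nearest to it.

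Retinoic acid is known to regulate HOX genes in the embryo, and the genes of its own pathway were described as a list of their own. Of 18 tested, 14 were negative and 4 positive, with a median of -0.14 (-0.16 with the GC trend removed, -0.05 without DMSO replicate 3, whose own level of this list was the highest of the 6 libraries). ALDH1A2 fell, as given above. DHRS3, which turns retinal back to retinol and is itself induced by retinoic acid, had 31.1, 30.5 and 36.6 CPM with DMSO and 23.7, 26.1 and 24.4 CPM with dTAG47 without overlap, and missed the threshold (log2 fold change -0.40; edgeR adjusted p = 0.21). RDH10, which makes retinal from retinol, had 186, 183 and 172 CPM with DMSO and 163, 165 and 150.3 CPM with dTAG47, without overlap (log2 fold change -0.18; edgeR adjusted p = 0.407). The annotation of RDH10 overlaps that of RPL7, so reads of RPL7 may be counted in it. Of the receptors, RARB, a retinoic acid target, had 20.2, 19.8 and 19.4 CPM with DMSO and 14.2, 17.2 and 16.4 CPM with dTAG47, all lower (-0.31; edgeR adjusted p = 0.533), whereas RARA had 17.4, 16.1 and 19.7 CPM with DMSO and 24.5, 20.3 and 22.1 CPM with dTAG47, all higher (0.33; edgeR adjusted p = 0.459). The orphan receptor NR2F1 (COUP-TFI), another developmental regulator that responds to retinoic acid, had 87.2, 77.9 and 85.0 CPM with DMSO and 71.0, 65.1 and 75.1 CPM with dTAG47 without overlap (log2 fold change -0.25; edgeR adjusted p = 0.352). NR2F2 was at -0.17. Both belong to a separate list of COUP-TF and NR2 receptors, in which 3 of 5 tested genes were negative and 2 positive, up to 0.13. Its median was -0.03, and 0.03 without DMSO replicate 2.

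Of 26 genes of non-canonical WNT signalling 16 were negative, with a median of -0.03 (-0.07 with the GC trend removed, -0.01 without dTAG47 replicate 3). Groups without overlap were found for 6 genes on the lower side (background 5.82%) and 2 on the higher (5.80%). Besides WNT5A, those on the lower side were the receptors FZD2, FZD4, FZD7 and FZD8, at log2 fold changes of -0.28, -0.30, -0.22 and -0.22, and the cadherin CELSR2, at -0.18; of these edgeR called only WNT5A. On the higher side the co-receptors PTK7 and RYK were at 0.15 and 0.16 (edgeR adjusted p = 0.632 and 0.649). Of 14 class 3 semaphorins, neuropilins and plexins 10 were negative, with a median of -0.08 (-0.01 without dTAG47 replicate 2). NRP1 had 45.6, 41.7 and 40.8 CPM with DMSO and 30.6, 35.3 and 30.8 CPM with dTAG47, and SEMA3C 34.3, 32.3 and 30.3 CPM with DMSO and 23.5, 25.1 and 22.8 CPM with dTAG47; both were lower in every dTAG47 library (edgeR adjusted p = 0.122 and 0.128).

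Splicing regulators that keep a regulated intron or poison exon in part of their transcripts also lay on the lower side. Of 22 tested 21 were negative, with CLK3 at 0.01 the exception, at a median of -0.07; 8 had groups without overlap, all lower (background 5.82%). edgeR called none, while DESeq2 called ARGLU1 and RBM39 among its 45 genes (adjusted p = 0.046 and 0.0408). ARGLU1 had 98.3, 116 and 109 CPM with DMSO and 85.9, 86.7 and 95.5 CPM with dTAG47 (log2 fold change -0.27; edgeR adjusted p = 0.184). LUC7L3 had 295, 303 and 304 CPM with DMSO and 235, 248 and 290.3 CPM with dTAG47 (-0.22), RBM39 411, 409 and 415 CPM with DMSO and 351, 365 and 377 CPM with dTAG47 (-0.18), and the kinase gene CLK4 was at -0.31. In these 4 genes every dTAG47 library lay below every DMSO library. The list is the poorest in GC of those described (median 40.2%), and with the GC trend removed its median was -0.04, with ARGLU1 at -0.24, LUC7L3 at -0.17 and CLK4 at -0.24; the part of GC content in the rest was not tested.

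**Figure D5:**
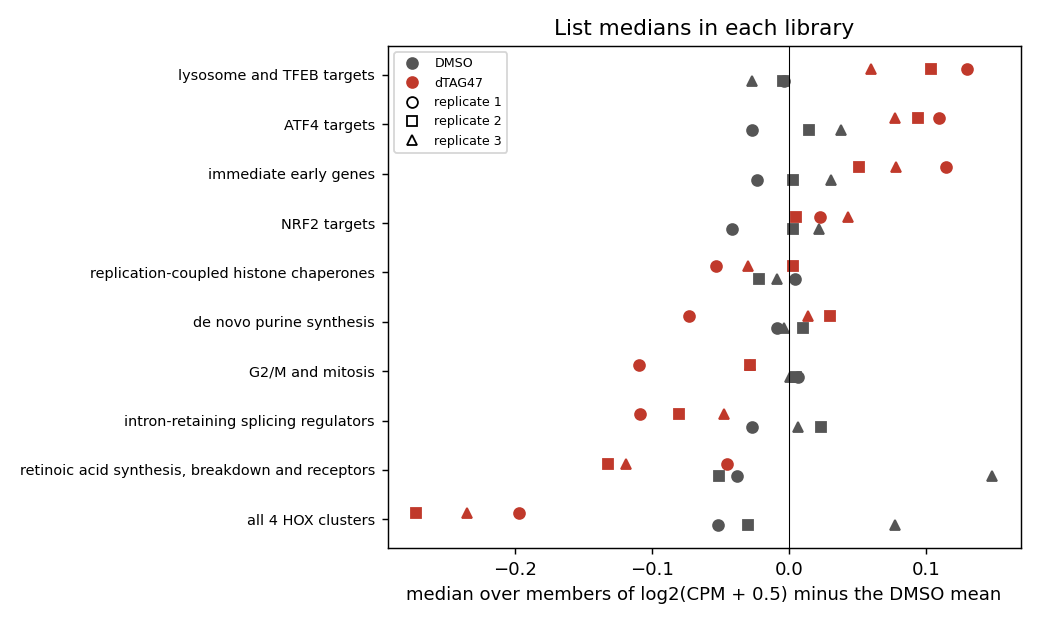
Median over the members of 10 lists of log2(CPM + 0.5) minus the DMSO mean (x axis), 1 symbol per library (grey DMSO, red dTAG47; shapes give the replicate number). The HOX medians are -0.05, -0.03 and 0.08 in the DMSO libraries and -0.20, -0.27 and -0.23 in the dTAG47 libraries; the groups separate for the lysosomal, ATF4, immediate early, G2/M, splicing and HOX lists and overlap for the purine, chaperone, NRF2 and retinoic acid lists.

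The same per-library medians show how far each list rested on all 6 libraries. For HOX genes the 3 dTAG47 libraries lay below all 3 DMSO libraries (-0.20, -0.27 and -0.23 against -0.05, -0.03 and 0.08), and for ATF4 targets above them (0.11, 0.09 and 0.08 against -0.03, 0.01 and 0.04). For retinoic acid genes DMSO replicate 3 stood apart at 0.15, while the other two DMSO libraries, at -0.04 and -0.05, were level with dTAG47 replicate 1 at -0.04. These medians were taken over the same genes as the counts above and add no independent evidence. The median dTAG47 minus AGB1 log2 difference was -0.02 for ATF4 targets, 0.03 for immediate early and 0.03 for retinoic acid genes. It was 0.06 for lysosomal genes, -0.01 for G2/M genes and -0.04 for splicing regulators. No member of these lists was called in that contrast, so their shifts against DMSO are not shown to be particular to dTAG47.

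None of the genes for the machinery that dTAG47 uses was called, where 0.0600% of all tested genes were called. CRBN, the ligase receptor that dTAG47 recruits, had 8.47, 9.38 and 9.34 CPM with DMSO and 9.61, 9.56 and 11.2 CPM with dTAG47 (log2 fold change 0.15, 95% interval -0.13 to 0.44; edgeR adjusted p = 0.867). FKBP1A, which encodes the wild-type FKBP12 protein, was at 0.04 (-0.07 to 0.14; 26.0% of its words occur in other genes such as FKBP1C). Of 14 genes of the CRBN and VHL ligases and degrader targets 7 were positive and 7 negative, with none called. Cytosolic ribosomal protein genes were mostly negative, 57 of 77, at a median of -0.04, and their summed share of counts was 7.22% ± 0.405 (SD, n = 3) with DMSO and 7.09% ± 0.0595 with dTAG47, overlapping (exact permutation test, p = 0.7).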

How the data were processed

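Poly(A)-selected RNA of HEK293T cells was sequenced. The authors deposited 1 table of raw read counts per gene for each library; per the submitters' processing notes HISAT2, DESeq2 and the hg38 build were used. Versions, read counter and strandedness were not given in the sources used here. All 58735 genes matched GENCODE 29, which gave coordinates. Groups came from the sample titles.

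Counts were normalised by TMM and filtered with filterByExpr, leaving 18319 genes, and tested with edgeR 4.0.16 (glmQLFit, glmQLFTest; R 4.3.3) in 1 fit of all 9 libraries with the group as the only term, Benjamini-Hochberg adjustment over all tested genes and a threshold of 0.05. Gene levels are CPM of TMM-scaled library sizes; standard errors and 95% intervals of log2 fold changes come from the fit. The common biological coefficient of variation was 11.0%. The median standard error at 5 CPM or more was 0.09. The labels do not say whether replicate numbers pair the libraries, and the main fit used no pairing. Deviations from the group mean of same-numbered DMSO and dTAG47 libraries correlated at -0.156, 0.0714 and -0.0471. DMSO 3 and dTAG47 1 reached 0.264. These values also carry the GC trends of the libraries, so they cannot decide whether cultures were paired. Composition shares were compared by exact permutation tests. GC content is that of the longest transcript of each gene, and its trend was removed with a lowess curve (span 0.3). Shared 75-base words mark genes whose reads a copy could take.

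The genes named are the PRPP synthetase and purine genes, CRBN and FKBP1A, every gene past the threshold, the 8 protein-coding genes each way nearest to it at 5 CPM or more without overlap, up to 3 members per list with the smallest p, and a few regulators (ATF4, DDIT3, NFE2L2, CDKN1A, MYC, E2F1, SLBP). Other list members named in the text were chosen after their values were seen. Some genes and lists are not reported here. The lists and the comparison were chosen with earlier results of these data known, so lists are described by counts and medians without a test. With 0.0600% of all tested genes called, the absence of a called member says little about a list. The fit was tested on simulated data. Alternatives were DESeq2 1.42.0, limma 3.58.1 (voom), other scalings and filters, the 6 libraries alone, a replicate block, GC trend removal and leaving out libraries.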

Additional observations from a re-analysis of the deposited data

How the results depend on the processing

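Against 11 called genes (6 higher, 5 lower), DESeq2 called 45 (22 and 23), no count filter 43 (21 and 22), the DMSO and dTAG47 libraries alone 4 (1 and 3; 3 of them shared), removal of the GC trend 22 (8 and 14), and the fit without DMSO 1 and dTAG47 1 6 (3 and 3). Leaving out 1 library gave 2 to 20 called genes, 1 to 15 higher and 0 to 5 lower; the cause was not tested. The replicate block gave 10 called genes (ALDH1A2 was lost), and 15 together with GC trend removal, 9 of them lower. limma called 10 (CHAC1 was lost). DESeq2's size factors, library sizes alone and a filter of 1 CPM in 3 libraries called the same 11 genes. For dTAG47 against AGB1, with 0 called, no count filter gave 13, the fit without DMSO 1 and dTAG47 1 gave 2, and leaving out 1 library 0 to 2. HMOX1 was called in all 20 alternatives. The dTAG47 minus DMSO differences in composition shares moved by less than the larger of the group SDs when taken over nuclear genes. Of the other values for single genes, 3643 kept direction and side of the threshold, 45 passed it newly and 61 no longer passed it, and none reversed past it. Depth limits low genes most: the 95% interval lay within a 2-fold change either way for 11440 of 11456 genes at 5 CPM or more.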

Other observations

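Several other gene groups of metabolism and protein turnover were measured, and none of their members was called between dTAG47 and DMSO by edgeR. Over all tested genes 0.0600% were called. The single genes given here were chosen after their values were seen. Cytosolic aminoacyl-tRNA synthetases, which charge tRNAs with amino acids, had 14 of 20 members positive at a median log2 fold change of 0.01. Groups without overlap were found for 4 of them on the higher side (background 5.80%) and 0 on the lower (5.82%). Among the 4 were YARS, FARSB and GARS, at 0.11, 0.13 and 0.11 (edgeR adjusted p = 0.627, 0.657 and 0.659). In cholesterol synthesis 15 of 24 genes were positive (median 0.03), with the sterol carrier STARD4 at -0.25 (edgeR adjusted p = 0.54). In fatty acid synthesis 9 of 12 were positive (median 0.05). Groups without overlap were found for 2 genes on the higher side (background 5.80%) and 2 on the lower (5.82%). Those on the lower side were ACSL4, which activates polyunsaturated fatty acids, and ELOVL6, an elongase, at -0.23 and -0.20 (edgeR adjusted p = 0.352 and 0.588).

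RNA polymerase I and nucleolar ribosome biogenesis genes gave 25 of 41 positive at a median of 0.02, which was -0.00 with the GC trend removed, with the polymerase subunit POLR1A at 0.13 (edgeR adjusted p = 0.586). Proteasome subunits were balanced, 18 positive and 18 negative. Heat shock chaperones had 15 of 22 negative (median -0.03); HSPA1A, which shares 71.2% of its 75-base words with its copy HSPA1B, was at 0.43 with overlapping groups (edgeR adjusted p = 0.301; it was called without a count filter, and also without DMSO replicate 3). Hypoxia targets had 14 of 25 positive (median 0.02, and -0.01 without DMSO replicate 3). Zinc finger and other proteins known to be degraded by CRBN with imide drugs had no called transcript, where 0.0600% of all tested genes were called. Of these, 10 of 15 were positive (median 0.06, and -0.01 without DMSO replicate 2), with ZNF692 at 0.27 (edgeR adjusted p = 0.463).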
